A study of Caenorhabditis elegans with 45 samples.

Results

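The lin-4 family of Caenorhabditis elegans miRNAs was followed across a series of let-7 mutants through its genes mir-237 and lin-4. Both were taken by gene name from the deposited table of miRNA read counts, so they are 2 of its 257 miRNA genes. mir-237 had reads in all 45 libraries, whereas lin-4 was listed at 0 in all 45. The values below are therefore those of mir-237, and lin-4 enters as a gap in the table.

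A miRNA guides Argonaute proteins to messenger RNAs mainly through its seed, the short stretch near its 5′ end. In C. elegans lin-4 was the founding miRNA and acts early in larval life, when it represses lin-14 and lin-28 and so lets the larva leave its first cell fate programmes. mir-237 shares the lin-4 seed and is placed in the same family, whose relatives in other animals are called miR-125. let-7 and its relatives act later in the same heterochronic pathway, the timing pathway of larval development, and let-7 represses lin-41.

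Small RNA libraries were made from populations of whole animals that were synchronised by hatching, fed for 45 hours at 20 °C and taken as mid L4 larvae. The series held 15 genotypes with 3 libraries each, lettered A, B and C. Wild type was strain VT1367, which carries maIs105 on chromosome V. The 14 mutants each changed 1 base of let-7, at positions 9 to 22 with the 5′-most base as position 1, and all carried maIs105 too. In a name such as G11U, a G at position 11 is replaced by U. The mutants without a further label were U9G (allele ma453), A10U (ma454), A17U (ma450), U18A (ma435), A19U (ma436), G20C (ma452), U21A (ma456) and U22A (ma437). The genotype labels of the other 6, G11U (ma431), G12U (ma448), U13A (ma432), U14A (ma433), G15A (ma434) and U16G (ma449), also name mnDp1(umnIs25) (X;V), with +/+ beside it. In worm nomenclature Dp stands for a duplication, so these are the strains with the duplication label below. What it covers is not given in the labels. Each genotype was 1 strain, so an allele and its strain background cannot be told apart. No label says that the libraries of a genotype came from separate cultures, so the p-values measure the spread between these samples, which may be technical.

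The libraries held between 1009758 and 3574420 miRNA reads, with a median of 2146242. The library U9G B stood apart, with a correlation of 0.867 to the median of the other libraries across miRNAs against 0.981 or more for each other library, and values without it are given beside the results for G11U, G12U, U13A, G15A, the duplication label, let-7 and the other heterochronic miRNAs. Of the miRNAs taken as late larval markers, let-7, lin-58 (mir-48), mir-84 and mir-241 had reads in every library, and lin-4 had none. The muscle miRNA mir-1 and the sensory neuron miRNA mir-124 were listed at 0 in all 45, so neither tissue could be checked by them, while lsy-6, a miRNA of the ASE taste neurons, lay between 25.95 and 60.82 counts per 1000000 miRNA reads (CPM).

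lin-4 had no read in any library, with a floor of 3 counts per library that corresponds to between 0.839 and 2.97 CPM, counts per 1000000 miRNA reads, for counting error only. No fold or test was made from it. In the Ensembl annotation of WBcel235 the lin-4 hairpin lies on the plus strand at II:5902254-5902347, with mature arms at 5902269 to 5902289 and 5902308 to 5902329. It lies within the span of the protein-coding gene F59G1.4 without touching its exons. The whole hairpin is covered on the opposite strand by an exon of F59G1.10, a non-coding RNA gene at 5902211 to 5902355. mir-237 lies on the X chromosome at X:8154084-8154182 on the plus strand, with arms at 8154099 to 8154121 and 8154136 to 8154157, and no exon of another gene touches its hairpin. The build the authors counted on is not given in the sources used here, so these positions describe the annotation only.

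A listing at 0 was much more frequent among miRNA genes covered on the opposite strand. All mature arms lay under an exon of another gene on the opposite strand for 39 miRNA genes, and 33 of these (84.6%) were at 0 in every library. Of the other 218 genes, 28 (12.8%) were at 0. Where the covering exon belonged to a non-coding RNA gene, as it does for lin-4, 25 of 26 (96.2%) were at 0, and the exception, mir-262, had 291 reads over all 45 libraries together. mir-1 (under T09B4.14), mir-124 (under C29E6.8) and mir-42 (under ZK930.12), a member of the embryonic mir-35 family, were among those at 0. The exceptions with reads outside the non-coding RNA genes were mir-260 with 204 reads in total, mir-356.2 with 51, mir-5592.1 with 2, mir-5592.2 with 1, and mir-55, which had 2460546 reads and is paired with a miRNA gene, cel-mir-55b. Classed instead by any overlap of the hairpin, 33 of 42 (78.6%) with an exon on the opposite strand were at 0. Those with reads included mir-57 (2112526 reads in total) and mir-67 (12795). Their hairpins overlap the non-coding RNA genes T09A5.19 and EGAP1.4. By hairpin, exons on the same strand only went with a smaller share at 0, 5 of 18 (27.8%). The share was 23 of 197 (11.7%) for hairpins with no exon of another gene. No test was made of these shares. The strand setting of the counting is not given in the sources used here, and its part in the 0 of lin-4 was not tested. The listing at 0 is not taken here as a measurement that lin-4 was absent from the animals.

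**Figure D1:**
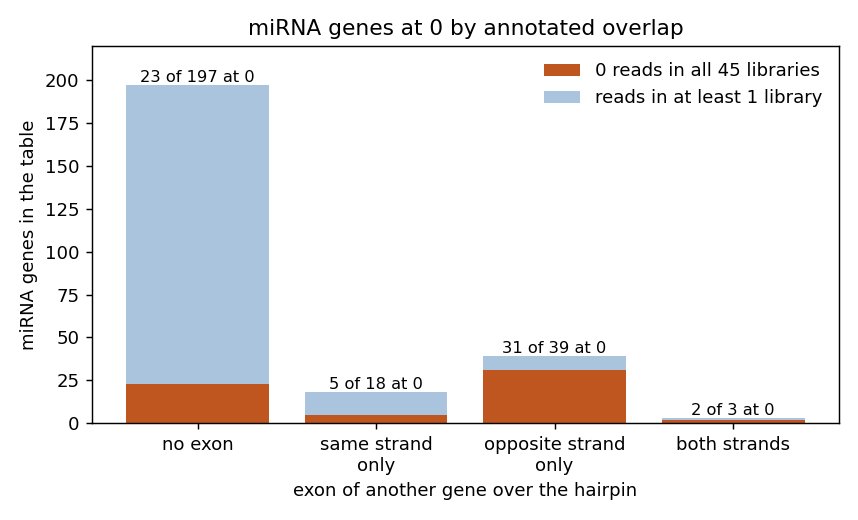
Number of miRNA genes in the table (y axis) by whether an exon of another gene overlaps the hairpin and on which strand (x axis), in the WBcel235 annotation. The dark part of each bar counts genes with 0 reads in all 45 libraries: 31 of 39 with an exon on the opposite strand only, where lin-4 falls, and 23 of 197 with no exon, where mir-237 falls.

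mir-237 was an abundant miRNA in these animals. Its raw count lay between 19279 and 91756 per library, which was 1.43% to 3.14% of the miRNA reads, and it ranked between the 7th and the 22nd most counted miRNA gene of a library. The counts are per gene and do not separate the arms of the hairpin. In wild type its level was 27809, 25307 and 27483 normalised CPM in libraries A, B and C, a mean of 26866 ± 1360 (SD, n = 3). Normalised CPM are counts per 1000000 miRNA reads after scaling by trimmed mean of M values (TMM), here and below. All levels of mir-237 are per whole animal population, and fewer cells that make it and less of it per cell cannot be told apart.

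Every mutant had a lower mean than wild type, from 65.7% to 93.7% of the wild-type mean. The lowest means were those of G11U and G15A. G11U had 13000, 20257 and 19701 normalised CPM (17653 ± 4039, SD, n = 3), and its library A was the lowest of all 45. G15A had 18594, 16019 and 18653 (17755 ± 1504, n = 3), a narrower spread. All 6 of these libraries lay below the lowest wild-type library.

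U13A had 14452, 19273 and 20968 normalised CPM (18231 ± 3381, SD, n = 3). G12U had 17958, 23548 and 17798 (19768 ± 3274, n = 3). A19U, the lowest of the mutants without the duplication label, had 19520, 19691 and 23606 (20939 ± 2311, n = 3). Again all libraries of these 3 mutants lay below the 3 wild-type libraries, with library B of G12U and library C of A19U the closest to them.

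U16G had 22976, 22393 and 21767 normalised CPM (22379 ± 605, SD, n = 3), the tightest of the 15 genotypes. A10U had 21204, 25278 and 21902 (22794 ± 2179, n = 3). U9G had 22831, 24685 and 25228 (24248 ± 1257, n = 3), and library B, which stood apart in other miRNAs, lay between its fellows here. The highest libraries of A10U and U9G missed the lowest wild-type library, at 25307, by far less than the wild-type SD.

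In the other 6 mutants the libraries overlapped those of wild type. They spanned 17856 to 26215 normalised CPM in U14A, 17116 to 25408 in U18A, 20485 to 26332 in A17U, 17755 to 31064 in G20C, 21439 to 29826 in U21A and 22626 to 27772 in U22A. The highest library of all was G20C C, and its fellow G20C A was among the low ones, so G20C had the widest spread, with an SD of 6685.

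**Figure D2:**
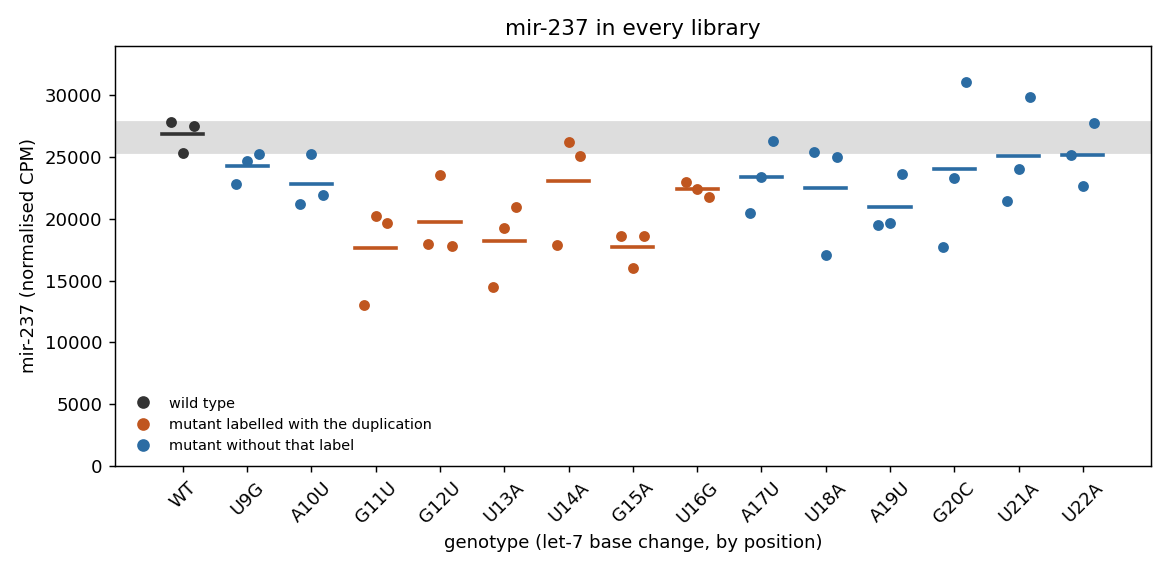
mir-237 in each of the 45 libraries (points, normalised CPM on a linear axis from 0) by genotype, with the mean of 3 libraries as a bar, and the range of the 3 wild-type libraries, 25307 to 27809, as a grey band. The libraries of G11U, G12U, U13A and G15A lie below the band, and those of G20C reach from 17755 to 31064, on both sides of it.

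From the highest mean to the lowest the order was wild type, U22A, U21A, U9G, G20C, A17U, U14A, A10U, U18A, U16G, A19U, G12U, U13A, G15A and G11U. No neighbours in this order differed beyond their spread: the ranges of all 14 neighbouring pairs overlapped, and the largest step, from wild type to U22A, was 0.654 of the larger SD of the pair. The ends of the order were apart, with the highest G11U library at 20257 normalised CPM and the lowest wild-type library at 25307.

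The 8 mutants whose libraries all lay below wild type were read against the other miRNAs. The share of the 130 tested miRNAs that did the same was 3.85% in A10U, 4.62% in U9G, 5.38% in both G11U and A19U, 6.15% in both G12U and U13A, 6.92% in U16G and 9.23% in G15A. A two-sided exact permutation test of 3 libraries against 3 gave p = 0.1 in each, which is the smallest it can give. As a share of miRNA reads without scaling, wild type had 2.599%, 2.502% and 2.649% in libraries A, B and C. By that measure U9G C, with 2.546%, and A19U C, with 2.644%, lay inside the wild-type range, while G11U, G12U, U13A, G15A, U16G and A10U still lay wholly below it.

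Without a replicate block, no mutant passed the test against wild type in mir-237 by edgeR's quasi-likelihood test. Benjamini-Hochberg adjustment was made over the 130 miRNAs, at an adjusted p of 0.05. The unadjusted p was under 0.05 in 4 mutants, and the DESeq2 Wald test also called 0 of 14. The share of miRNAs called in either direction was 9.23% in U9G, 3.85% in A10U, 1.54% in each of G11U, G12U and U18A, 0.769% in each of G15A, A19U and G20C, and 0% in the other 6 mutants.

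The largest difference was in G11U, where the log2 fold change against wild type was -0.61 (SE 0.20), 34.3% lower, with an edgeR adjusted p of 0.15. With the replicate letter as a block it was -0.62 (adjusted p = 0.0486), which passed the threshold. In G11U, 3 miRNAs were called with the block, against 2 of 130 without it. The letters did pair G11U with wild type by the check used. Without its library A the fold change was -0.43 (adjusted p = 0.968), and without U9G B it was -0.59 (adjusted p = 0.0842).

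That library, G11U A, also carried the most of the embryonic and germ line mir-35 family. The summed mir-35 to mir-42 level was 27371 CPM there, 24233 in U21A A and between 9141.5 and 17595 in the other 43 libraries, with wild type at 11993 to 12867. Of the 8 genes, 7 had reads in all libraries and mir-42 was at 0 in all. U21A A was in turn the lowest of its 3 libraries for mir-237. Other libraries went either way. A17U A had 16083 CPM of the family, the most of its 3 libraries, and their lowest mir-237, at 20485 normalised CPM. U9G B, with 17595 CPM of the family, lay between its fellows for mir-237. U13A A, the next lowest library after G11U A for mir-237 at 14452 normalised CPM, had 12837 CPM of the family. The part of these markers in the low mir-237 of G11U A or U21A A was not tested.

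G15A had a log2 fold change of -0.60 (SE 0.20), 33.9% lower, with an edgeR adjusted p of 0.147, the smallest of the 14. With the replicate letter as a block its edgeR adjusted p was 0.0503, just above the threshold. Same-letter correlations with wild type passed the check used in G11U and not in G15A. The block is an effect of each letter shared by all genotypes, so that check does not decide its use for a single mutant. U13A had -0.56 (SE 0.20), 32.1% lower, with an adjusted p of 0.36. G12U had -0.44 (SE 0.20), 26.4% lower, with an adjusted p of 0.72. Without U9G B the edgeR adjusted p-values were 0.0797 for G15A, 0.0703 for U13A and 0.238 for G12U. With that library left out and the letter as a block, a combination added after the data were seen, G11U (0.0208), U13A (0.0236) and G15A (0.0293) passed. The share of all miRNAs called under that combination was not counted.

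The remaining 10 mutants ranged from -0.36 in A19U (adjusted p = 0.679) to -0.09 in U22A (adjusted p = 0.993) on the log2 scale by edgeR. For both G20C and U21A the direction rested on 1 library. Without G20C A the value of G20C was 0.06 in place of -0.16, and without U21A A that of U21A was 0.09 in place of -0.10.

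**Figure D3:**
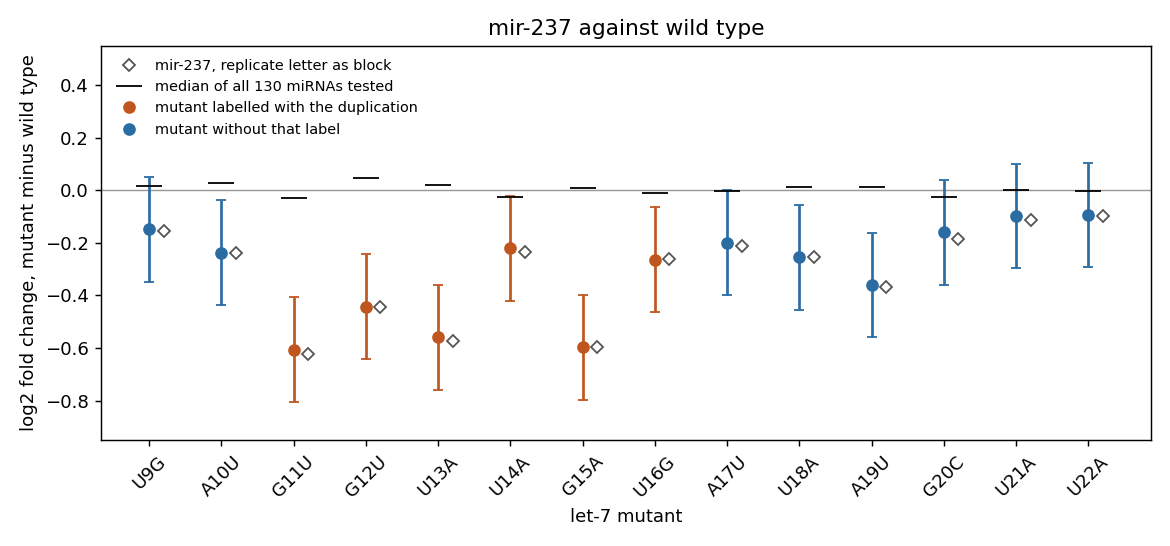
Log2 fold change of mir-237 in each mutant against wild type (filled points, with 1 SE as bars, from edgeR), the value with the replicate letter as a block (diamonds) and the median of all 130 tested miRNAs (dashes). All 14 points lie below 0, from -0.61 in G11U to -0.09 in U22A, while the medians lie between -0.03 and 0.05.

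All 14 fold changes were below 0, with a median of -0.25, while the median fold change of all miRNAs lay between -0.03 and 0.05 in the 14 mutants. The 14 values share the same 3 wild-type libraries and are not independent. Of the 130 miRNAs, 6 (4.62%) were below wild type in all 14 mutants and 8 were above it in all 14. Within a mutant, mir-237 sat between the 4.62th percentile of all fold changes, in U13A, and the 41.5th, in U9G.

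Averaged over the 14 mutants, the edgeR difference from wild type was -0.30 on the log2 scale (SE 0.141) with an adjusted p of 0.729. No miRNA passed in that contrast (0%), and 7 had an unadjusted p under 0.05. Across the 15 genotypes the edgeR F-test gave mir-237 an adjusted p of 0.248, with 15.4% of miRNAs called. The DESeq2 likelihood ratio test, an alternative, gave mir-237 an adjusted p of 0.0385, and the share of all miRNAs that it called was not counted.

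The lowest strain means were those of strains with the duplication label. Over all strains that carry it the mean was 19810 ± 2386 normalised CPM (SD, n = 6 strains), from 17653 to 23049 with a median of 19000. The mutants without the label had 23530 ± 1427 (n = 8), from 20939 to 25183 with a median of 23724. The 4 lowest strains, G11U, G15A, U13A and G12U, all carried the label, but the groups overlapped, since U16G and U14A lay within the range of the others.

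With counts summed per strain, mir-237 was -0.23 on the log2 scale in the labelled strains against the others (SE 0.0988) by edgeR, with an adjusted p of 0.412. No miRNA of 137 passed (0%), and 15 had an unadjusted p under 0.05. DESeq2 on the same sums gave mir-237 an adjusted p of 0.285. A two-sided exact permutation test over the 3003 splits of the 14 strain means gave a difference of -0.26 with p = 0.00433, for this 1 gene chosen with earlier results known and not adjusted over miRNAs. Without U9G B the edgeR difference was -0.25 with an adjusted p of 0.117. The label falls on positions 11 to 16 and on no other, so the label and the position of the change cannot be told apart. mir-237 and let-7 are both on the X chromosome, 6589990 bases apart between hairpins in WBcel235.

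The level of mir-237 was then set beside that of let-7. By edgeR, the let-7 form that a genotype encodes passed the test as higher than wild-type let-7 in G12U and G20C and as lower in G11U and G15A. Without U9G B it also passed as lower in U22A. In a mutant this value counts the mutant form alone, without reads of the wild-type form. Median let-7 was 27661 normalised CPM in wild type, 66344 in G12U, 85923 in G20C, 13440 in G11U and 14868 in G15A. Median mir-237 in the same genotypes was 27483, 17958, 23301, 19701 and 18594. G11U had the lowest and G12U the second highest median let-7 of the 15 genotypes, and of this pair G12U had the lower mir-237 median but G11U the lower mean, at 17653 against 19768 normalised CPM.

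Over the 15 genotype medians on the log2 scale, Pearson's r of mir-237 with let-7 was -0.192 (permutation p = 0.495) and Spearman's rho was -0.257 (permutation p = 0.353), in 1 relation computed. Without G20C and G12U, the genotypes farthest from the median let-7 level, r was -0.005 over 13. The sign was not stable: r turned to 0.103 from genotype means in place of medians and to 0.11 with the deposited let-7 row. In the other alternatives r stayed negative, such as -0.354 without TMM scaling (permutation p = 0.197) and -0.038 without U9G B (permutation p = 0.896). The genotypes share their normalisation, and let-7 reads are part of the library totals.

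**Figure D4:**
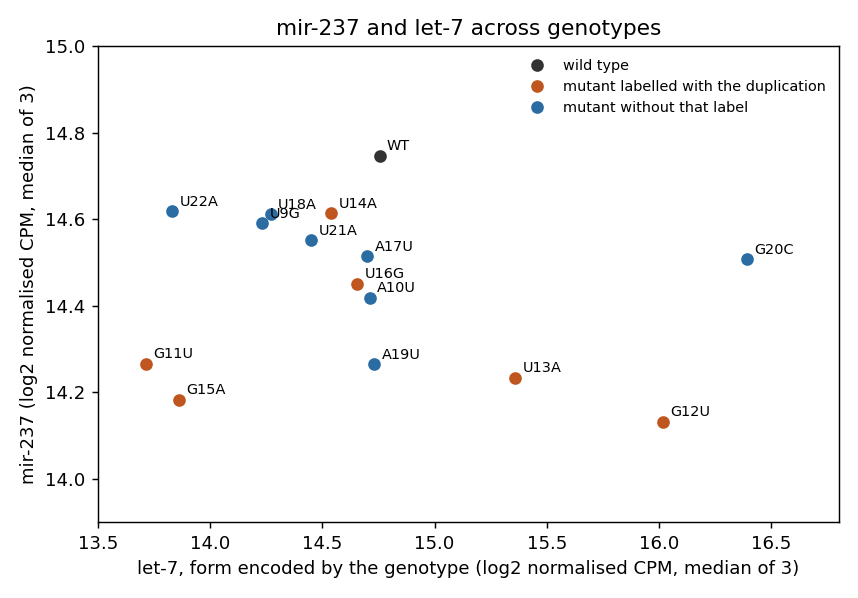
Median mir-237 (y axis) against the median of the let-7 form encoded by the genotype (x axis), both as log2 normalised CPM of 3 libraries, for the 15 genotypes. Pearson's r is -0.192, and G11U and G12U, near opposite ends of the let-7 axis, have mir-237 medians of 19701 and 17958 normalised CPM.

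Of the other heterochronic miRNAs listed beside mir-237 and let-7, none passed the test in any mutant. lin-58, mir-84 and mir-241 are the let-7 family members that act earlier in larval life than let-7 itself. Their wild-type means were 61840 ± 11220, 13270 ± 1942 and 3542 ± 965.4 normalised CPM (SD, n = 3). mir-793, mir-794 and mir-795 are less abundant relatives, at 878.4 ± 193.2, 157.4 ± 23.17 and 453.8 ± 20.66. In the 84 tests of these 6 miRNAs by edgeR, 0 passed as higher and 0 as lower. Without U9G B 1 passed in each direction, mir-793 as higher in G11U and mir-795 as lower in U22A. The share of all miRNAs called in those mutants without that library was not counted. Their fold changes were below 0 in 3 to 11 of the 14 mutants, against 14 for mir-237, with the wild-type libraries again shared.

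In U9G B lin-58 was at 1922 normalised CPM, the lowest of all 45 libraries, which otherwise reached 93560. In the same library mir-237 had 24685 normalised CPM, between the other libraries of U9G.

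Likeness to mir-237 was measured as Pearson's r between genotype medians of log2 normalised CPM over the 15 genotypes, as a description. The most alike were mir-800 (r = 0.53), mir-59 (0.495), mir-240 (0.487), mir-55 (0.482) and mir-357 (0.456). Within genotypes, over deviations in the 44 libraries other than U9G B, r was smaller for mir-800, mir-240 and mir-55, at 0.279, 0.289 and 0.294, and mir-59 and mir-357 had -0.174 and -0.215. All share library totals and scaling.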

How the data were processed

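Per the file headers, the deposited files are 1 table of counts by miRNA gene and 1 table with 1 row per library that counts all, mapped and let-7 reads by form. The submitters' processing notes name cutadapt 1.9, Bowtie2 2.3.4.3, Subread 1.6.2 and featureCounts. Genome build, annotation and strand setting are not given in the sources used here. The reads carry no stated molecular identifiers.

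The count of the let-7 form each genotype encodes replaced the let-7 row. In 1 library the deposited miRNA total differed from the summed counts, and sums were used. No libraries were identical. edgeR 4.0.16 in R 4.3.3 fitted 1 quasi-likelihood model to 45 libraries (TMM, filterByExpr by genotype, 130 miRNAs kept, mir-237 among them), with Benjamini-Hochberg adjustment at 0.05; the standard error is the size of the log2 fold change over the root of F. Strain sums were tested likewise over 137 miRNAs. Log2 CPM used a prior count of 2. DESeq2 1.42.0, other scalings and filters, a replicate block and left-out libraries were alternatives, and the script was tested on simulated data. Hairpin overlaps came from the Ensembl WBcel235 annotation.

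The replicate letters are shared by all genotypes. All 3 same-letter correlations of deviations with wild type were over 0.1 in 9 of 14 mutants, G11U among them and G15A not, within -0.346 to 0.585. By average correlation of deviations with the libraries of other genotypes, 84.4% of libraries were closest to those of their own letter. The pairing is read from the data, since the labels do not say what a letter marks. Members, lists and tests were chosen with earlier results of these data known. Levels were given per library for wild type and the 8 mutants that did not overlap it, and the 5 miRNAs most like mir-237 by r were named. Sequences of the miRNAs were not used here.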

Additional observations from a re-analysis of the deposited data

How the results depend on the processing

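Of 154 values of mir-237 in a mutant under another processing, 141 had the same sign and the same call, 4 passed it and 9 changed sign. The 4 were G11U with the replicate block (-0.62) and, with the block and U9G B left out, G11U (-0.60), U13A (-0.62) and G15A (-0.59). Over the 130 miRNAs tested in each of the 14 mutants, calls went from 26 to 31 with the block. The 9 arose with the mean of the other 13 mutants in place of wild type as reference: U9G 0.17, A10U 0.071, U14A 0.088, U16G 0.042, A17U 0.11, U18A 0.052, G20C 0.15, U21A 0.22 and U22A 0.23, a different comparison by construction. Leaving out 1 library gave ranges of -0.68 to -0.43 in G11U, -0.58 to -0.40 in G12U, -0.71 to -0.47 in U13A, -0.70 to -0.54 in G15A, -0.31 to 0.059 in G20C and -0.27 to 0.09 in U21A. It gave -0.26 to -0.10 in A17U, -0.30 to -0.067 in U14A, -0.41 to -0.12 in U18A, -0.15 to -0.034 in U22A, -0.37 to -0.21 in A10U, -0.49 to -0.30 in A19U, -0.23 to -0.12 in U9G and -0.31 to -0.20 in U16G, none of which changed sign. Across genotypes the adjusted p was 0.107 to 0.337 with a library left out and 0.0385 by DESeq2's likelihood ratio test. The mean of the mutants ranged from -0.36 to -0.26 with a library left out and the duplication difference from -0.30 to -0.19 with a strain or U9G B left out; its permutation test gave -0.26. The let-7 relation turned to 0.103 from genotype means and 0.11 with the deposited let-7 row. It stayed negative otherwise, such as -0.354 without TMM scaling and -0.038 without U9G B. Likeness turned to -0.174 for mir-59 and -0.215 for mir-357 within genotypes. The causes were not tested. With 3 libraries per genotype, the SD of mir-237 reached 6685 normalised CPM, while its raw count was 19279 or more in every library.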

Other observations

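The miRNAs least like mir-237 over the genotype medians, chosen after their values were seen, were mir-1821 (r = -0.821), mir-63 (-0.694), mir-8196.2 (-0.671), mir-47 (-0.667) and mir-793 (-0.632). The opposite ends were thus farther from 0 than the most alike, whose highest r was 0.53. For mir-1821 the sign held within genotypes over 44 libraries (-0.349), whereas mir-63 had 0.579 there. No test was made, and the miRNAs share library totals and scaling.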
